A study of Homo sapiens with 4 samples.

Results

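The nuclear-encoded subunits of oxidative phosphorylation were compared between PC9OR and PC9 cells. Members were the genes whose current official symbol begins with NDUFA, NDUFB, NDUFC, NDUFS, NDUFV, UQCR, COX4I, COX5, COX6, COX7, COX8 or ATP5, together with SDHA, SDHB, SDHC, SDHD and CYC1, without pseudogenes. RefSeq holds 94 such protein-coding genes, of which 89 were listed in at least 1 library, out of 16813 genes listed in all. Of the 89, 80 encode subunits, 8 encode NDUFAF assembly factors of complex I, and 1 (ATP5IF1) encodes the inhibitor of ATP synthase. COX4I2, COX6A2, COX7A1, COX8C and UQCRHL were listed in no library, and 1 ATP synthase gene is not reported here. ATP5MGL was listed at FPKM of 0.23 or less in every library and was not tested, which left 88 members, 79 of them subunits.

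PC9 is a lung adenocarcinoma line that depends on mutant EGFR, and PC9OR is a derivative of it that resists the EGFR inhibitor osimertinib. Both lines were grown in RPMI 1640 with fetal bovine serum, their genotype is given as WT, and total RNA of 2 biological replicates of each was sequenced from stranded libraries. PC9OR is 1 resistant line, so whatever else differs between these lines cannot be told apart from resistance. The expected counts summed to between 23201307 and 32203998 per library.

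Oxidative phosphorylation is carried out in the inner mitochondrial membrane. Complex I (NADH dehydrogenase) and complex II (succinate dehydrogenase) pass electrons to ubiquinone, complex III passes them to cytochrome c, and complex IV (cytochrome c oxidase) passes them to oxygen. Complexes I, III and IV pump protons, and complex V (ATP synthase) uses the resulting gradient to make ATP. Most subunits are encoded in the nucleus and a few catalytic ones in mitochondrial DNA. None of the mitochondrially encoded subunits was listed in these files, so the comparison concerns the nuclear transcripts only.

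Promoters of these genes are known for sites of NRF1, of ETS factors such as GABPA, and of YY1. RefSeq promoters (GRCh38.p14, 250 bases before to 50 after the start, the top entry of each gene) were found for 66 of the 80 listed subunits. The 10-letter NRF1 palindrome was present in 4 of the 66 (6.06%), against 1.36% of 27305 promoters of all genes and 2.33% of 10752 promoters of tested genes. The ETS sequence CCGGAAG, read on both strands, was present in 19 (28.8%, against 10.7% and 19.5%), and the YY1 sequence AAGATGGC in 11 (16.7%, against 3.03% and 5.38%). Matches of different motifs, or of the same motif, overlapped in 1 of the 66 promoters. At least 1 of the 3 was present in 31 promoters (47.0%, against 14.1% and 25.2%). The 4 subunit promoters with the NRF1 palindrome are shown in 40-base windows, with the palindrome in capitals, because they hold the longest of the searched motifs.
ATP5F1C: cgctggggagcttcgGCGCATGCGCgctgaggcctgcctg
NDUFA8: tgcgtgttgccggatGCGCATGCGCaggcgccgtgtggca
NDUFB4: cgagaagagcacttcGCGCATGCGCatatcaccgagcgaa
SDHD: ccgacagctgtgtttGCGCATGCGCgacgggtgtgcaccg
In the GRCh38.p14 assembly these windows lie at chr10:7788140-7788179, plus strand (ATP5F1C), at chr9:122159759-122159798, minus strand (NDUFA8), at chr3:120596162-120596201, plus strand (NDUFB4) and at chr11:112086748-112086787, plus strand (SDHD).

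Whole promoters are shown for ATP5PB and COX5B and for COX6B2, which had the largest fall. ATP5PB and COX5B had the largest rises of complex V and of complex IV after adjustment for the deposited transcript lengths. Capitals mark the YY1 sequence (as its reverse complement) in ATP5PB and the pair of ETS sequences in COX5B. The COX6B2 promoter held none of the 3 motifs in this window.
ATP5PB: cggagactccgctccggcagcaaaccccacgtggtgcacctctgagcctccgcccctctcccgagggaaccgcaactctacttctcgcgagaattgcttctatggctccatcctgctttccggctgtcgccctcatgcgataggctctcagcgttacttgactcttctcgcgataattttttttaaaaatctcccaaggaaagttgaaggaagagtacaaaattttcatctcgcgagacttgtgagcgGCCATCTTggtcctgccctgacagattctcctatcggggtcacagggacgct
COX5B: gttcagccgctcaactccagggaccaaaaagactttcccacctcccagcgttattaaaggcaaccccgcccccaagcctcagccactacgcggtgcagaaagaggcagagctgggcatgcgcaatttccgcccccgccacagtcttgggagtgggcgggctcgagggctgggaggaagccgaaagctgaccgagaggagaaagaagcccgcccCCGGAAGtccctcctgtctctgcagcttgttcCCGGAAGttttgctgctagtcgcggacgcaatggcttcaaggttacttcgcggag
COX6B2: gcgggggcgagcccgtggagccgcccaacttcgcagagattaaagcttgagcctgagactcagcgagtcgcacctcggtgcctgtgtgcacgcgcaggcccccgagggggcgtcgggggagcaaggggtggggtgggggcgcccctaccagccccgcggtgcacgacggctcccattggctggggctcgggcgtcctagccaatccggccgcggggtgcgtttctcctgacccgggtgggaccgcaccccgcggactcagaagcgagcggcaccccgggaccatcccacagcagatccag
Their GRCh38.p14 positions are chr1:111449214-111449513, plus strand (ATP5PB), chr2:97645812-97646111, plus strand (COX5B) and chr19:55354670-55354969, minus strand (COX6B2). Each position lies around the annotated transcription start of the gene. Among the tested subunits with a promoter entry, the median log2 fold change was 0.30 for the 31 with a motif and 0.43 for the 35 without, both in the length-offset fit described next. Of the 31 subunits with a motif 8 were called higher and 0 lower, and of the 35 without 14 were called higher and 1 lower. Of all genes tested, 19.9% were called higher and 18.4% lower in that fit.

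Most subunit transcripts took a larger share of the reads in PC9OR than in PC9. All members together made up 0.714% and 0.982% of the counts in PC9 replicates 1 and 2, and 1.34% and 1.39% in PC9OR replicates 1 and 2. In counts per 1000000 counts of the library (CPM), both PC9OR libraries lay above both PC9 libraries for 75 of the 79 tested subunits, against 39.6% of all 13148 genes tested. For 75 of the 79, PC9 replicate 1 was also below PC9 replicate 2, which in turn was below both PC9OR libraries, an order held by 28.9% of all genes. The median subunit was 0.54 higher in PC9 replicate 2 than in PC9 replicate 1 on the log2 scale, so the replicates of the parental line stood apart from each other in the direction in which PC9OR stood apart from both.

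**Figure D1:**
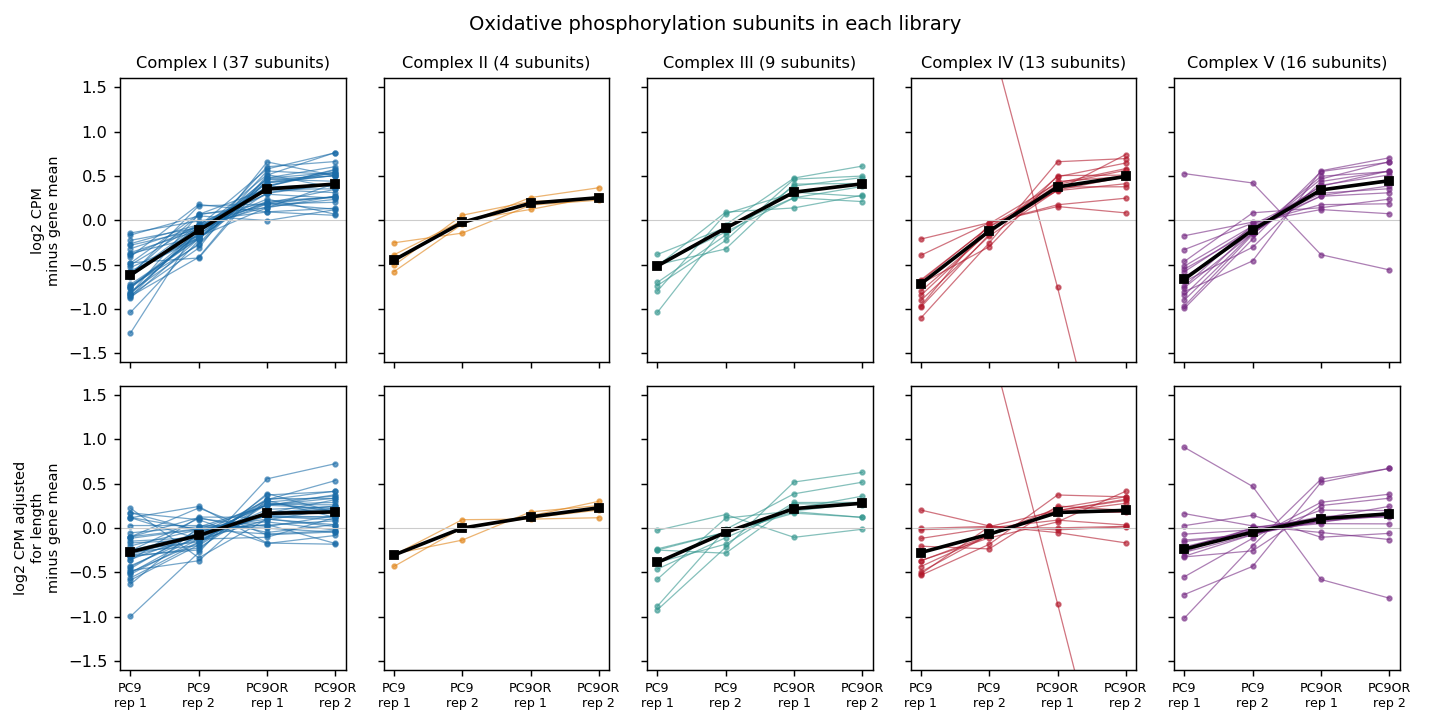
Level of each of the 79 tested subunits in the 4 libraries, as log2 CPM minus the gene's own mean over the libraries, by complex. The upper row gives CPM, the lower row CPM adjusted for transcript length, thin lines are subunits, thick black lines their median; the COX6B2 line leaves the complex IV panels at both ends. Medians climb from PC9 replicate 1 to PC9 replicate 2 and on to the PC9OR libraries, less steeply in the lower row.

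Subunit transcripts are short, and short transcripts as a whole were higher in PC9OR. The deposited length of the tested subunits had a median of 815 bases, against 2989 bases for all genes tested. Over 11952 genes the log2 ratio of PC9OR to PC9 correlated with transcript length at Spearman's rho of -0.38, the ratio of PC9 replicate 2 to replicate 1 at -0.44, and the ratio of the PC9OR replicates at 0.00. These are correlations across genes of the same 4 libraries, given as a description. For the 781 tested genes under 1000 bases that are no members the median log2 fold change was 0.59. For this reason every member was tested in 2 fits of edgeR's quasi-likelihood test on all 13148 genes, a library-size fit and a length-offset fit in which a smooth curve of level on length was removed from each library.

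In the library-size fit 43 of 88 members were called higher in PC9OR and 2 lower at an adjusted p under 0.05 (Benjamini-Hochberg), where 15.6% of all genes were called higher and 20.8% lower. In the length-offset fit 30 members were called higher and 3 lower, against 19.9% and 18.4% of all genes. Of the 30, 28 were also called higher in the library-size fit. Among the 79 subunits alone, 39 were called higher and 2 lower in the library-size fit, and 28 higher and 3 lower in the length-offset fit. The median log2 fold change of the subunits was 0.72 in the library-size fit and 0.35 in the length-offset fit, where all genes had medians of 0.01 and 0.08. The number of members called higher rested on single libraries in both fits. With a library left out, the arm with a lone library was assumed to vary like the other. Those counts are given only among the alternatives below and are not read as a result. The median fold change of the subunits stayed above 0 whichever library was left out. It lay between 0.47 and 0.98 in the library-size fit and between 0.24 and 0.46 in the length-offset fit.

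**Figure D2:**
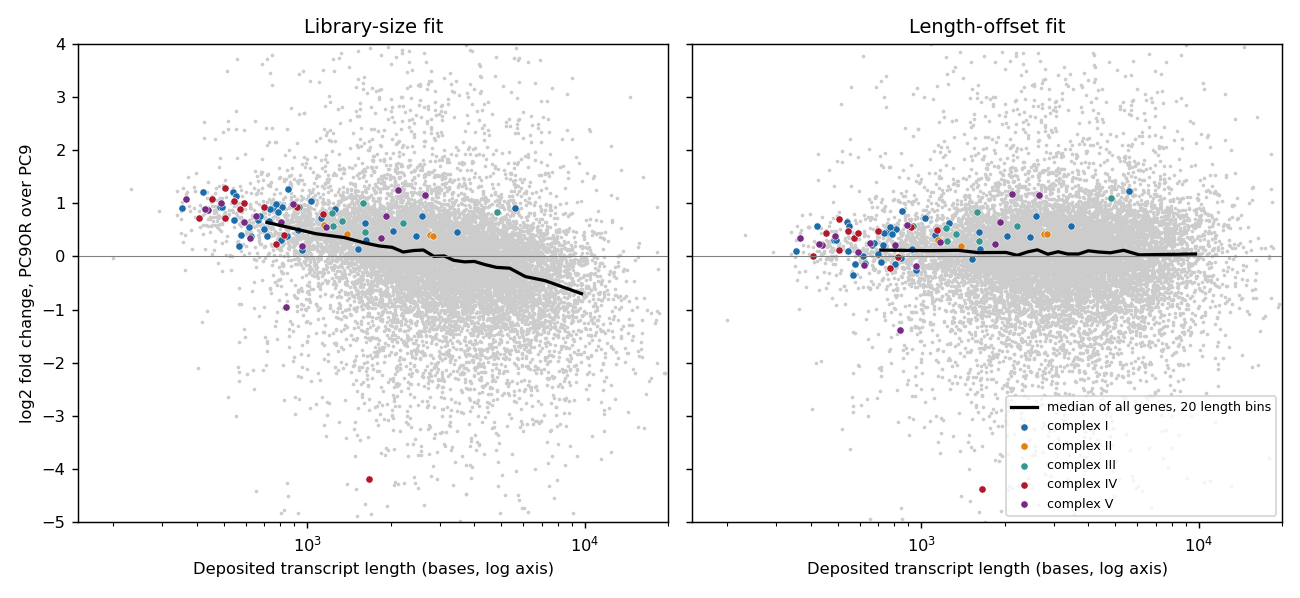
log2 fold change of PC9OR over PC9 against deposited transcript length (log axis) for all tested genes (grey) and the subunits of each complex (colours), in both fits. The black line is the median of all genes in 20 length bins, which falls with length on the left and is nearly level on the right; most subunits lie above it in both panels.

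Each subunit was also set against the 200 non-member genes nearest to it in transcript length. By the log2 fold changes of the library-size fit, 59 of 79 subunits lay above the median of their length neighbours, and the median subunit lay 0.25 above it. After adjustment for length, 59 subunits were higher in each PC9OR library than in either PC9 library, against 42.8% of all genes. The 50 subunits under 1000 bases had a median of 0.86 in the library-size fit and 0.24 in the length-offset fit. The 29 longer subunits had 0.62 and 0.43. Values quoted from here on are CPM for levels and log2 fold changes from the length-offset fit with their SE (n = 2 libraries per line), unless another scale is named. Calls within each complex stand against the shares of all genes given above for each fit. Several calls of named subunits in the length-offset fit were lost under some alternative setting described below. They were those of NDUFS1, NDUFA10, NDUFB5, SDHA, UQCRFS1, COX5B, COX6B1, COX7A2L, COX7B, ATP5F1A and ATP5MC2.

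**Figure D3:**
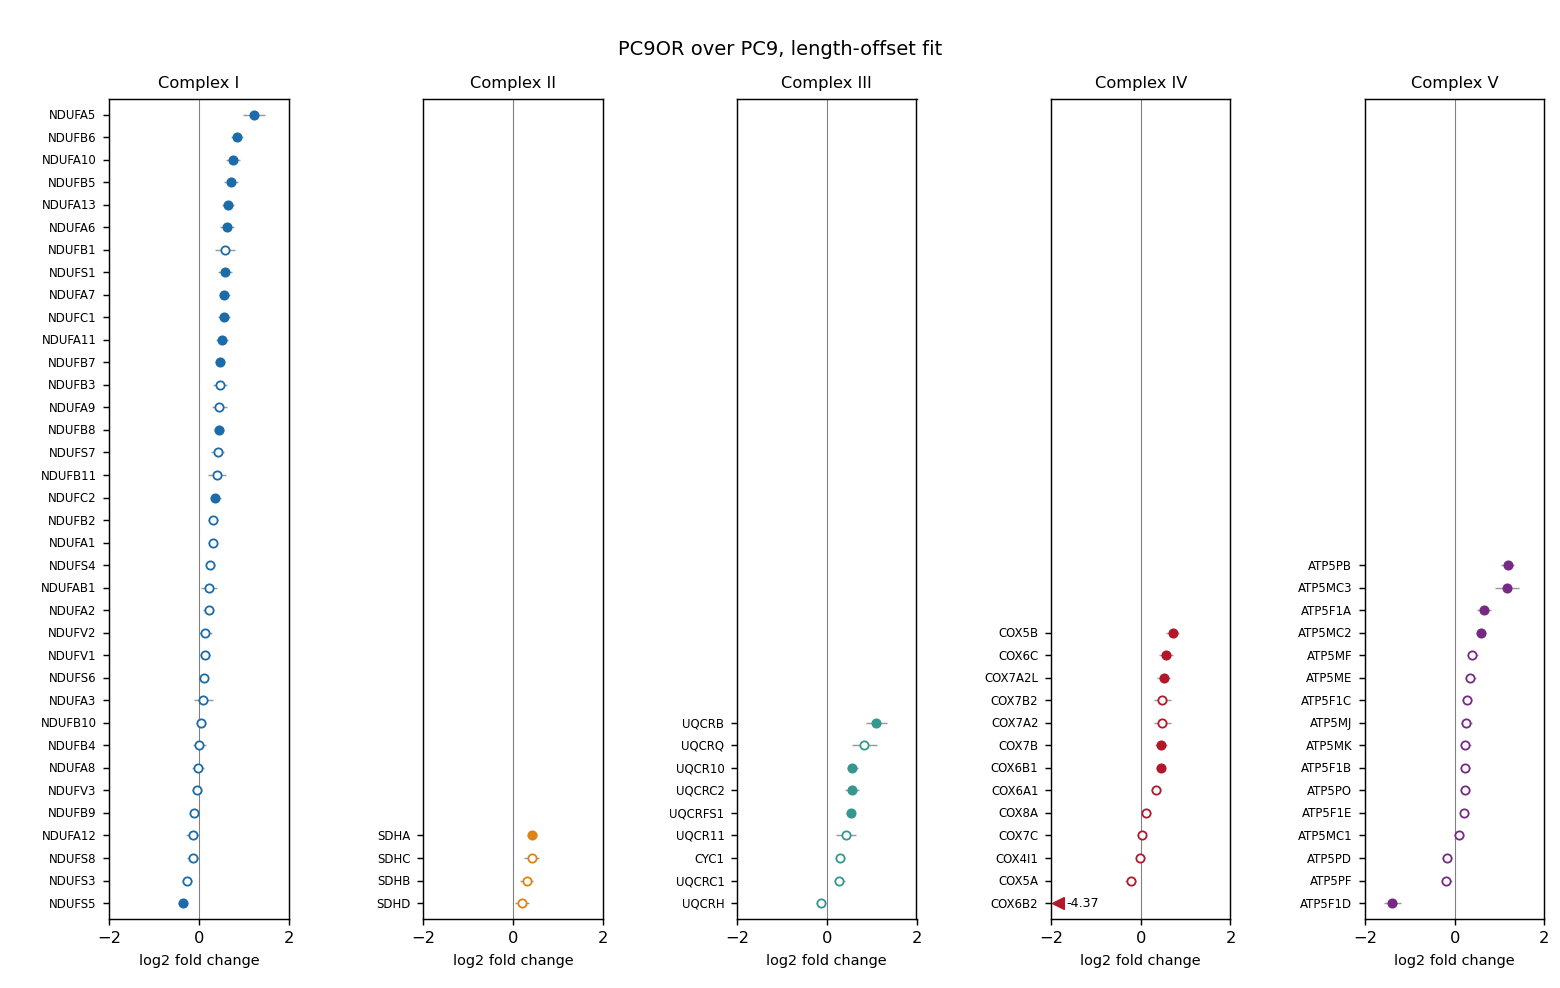
log2 fold change of PC9OR over PC9 in the length-offset fit for tested subunits, sorted within their complex. Points are estimates with SE bars, filled where the edgeR adjusted p was under 0.05; COX6B2 lies off the axis at -4.37 and is drawn as an arrow. NDUFA5, UQCRB, COX5B and ATP5PB head complexes I, III, IV and V.

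Complex I had 37 tested subunits, with a median of 0.72 in the library-size fit (18 called higher, 0 lower) and 0.37 in the length-offset fit (14 higher, 1 lower). Its 7 core subunits, which carry the flavin and iron-sulphur clusters, had a median of 0.46 in the library-size fit and 0.14 in the length-offset fit. The 30 accessory subunits had 0.83 and 0.39. This gap between core and accessory subunits was not tested. NDUFS1, the largest core subunit, was at 152 and 191 CPM in PC9 and at 230 and 240 in PC9OR. Both PC9OR libraries lay above both PC9 libraries, with a log2 fold change of 0.58 ± 0.16 (edgeR adjusted p = 0.036). NDUFS7 (0.42), NDUFV1, which binds NADH (0.13), NDUFV2 (0.14), NDUFS8 (-0.14) and NDUFS3 (-0.26) did not pass the test in this fit.

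Among the accessory subunits of complex I, NDUFA5 had the largest rise in the length-offset fit. NDUFB6 had the largest in the library-size fit (1.26), and with canonical transcript lengths NDUFB5 (1.19) exceeded NDUFA5 (1.15). The level of NDUFA5 was 22.0 and 31.5 CPM in PC9 and 47.4 and 53.1 CPM in PC9OR. PC9OR was higher in both libraries, by 0.91 ± 0.20 in the library-size fit (edgeR adjusted p = 0.026) and by 1.24 ± 0.24 in the length-offset fit (edgeR adjusted p = 0.014). NDUFA5 has the longest deposited length of the subunits, 5581 bases, and was the lowest of the complex in FPKM in every library, from 2.84 to 6.55.

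NDUFB6 was at 21.7 and 29.4 CPM in PC9 and at 56.0 and 66.8 CPM in PC9OR, with no overlap. It rose by 0.85 ± 0.13 (edgeR adjusted p = 0.0068), the smallest adjusted p of the complex. NDUFA13, an accessory subunit also known as GRIM-19, went from 85.5 and 150 CPM to 267 and 278 CPM, a change of 0.65 ± 0.14 (edgeR adjusted p = 0.018). It was the highest complex I subunit in FPKM in both PC9OR libraries (468 and 471), while NDUFS5 held that place in both PC9 libraries (198 and 297). The other accessory subunits called higher were NDUFA6, NDUFA7, NDUFA10, NDUFA11, NDUFB5, NDUFB7, NDUFB8, NDUFC1 and NDUFC2, at values between 0.37 (NDUFC2) and 0.77 (NDUFA10).

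NDUFS5, an accessory subunit of the intermembrane-space side, was the only complex I subunit called lower. Its CPM was 123 and 185 in PC9 and 174 and 180 in PC9OR, so the lines overlapped before adjustment and the library-size fit gave 0.20 ± 0.21 (edgeR adjusted p = 0.47). The length-offset fit gave -0.36 ± 0.10 (edgeR adjusted p = 0.043). NDUFS5, at 567 bases, was thus called lower only relative to genes of like length, and its call was lost with canonical transcript lengths from GENCODE (edgeR adjusted p = 0.17).

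Complex II, which also belongs to the tricarboxylic acid cycle, is built from 4 nuclear subunits, and all 4 were higher in both PC9OR libraries than in both PC9 libraries. Of all genes tested, 39.6% held that order in CPM and 42.8% after adjustment for length. SDHA, the flavoprotein that oxidises succinate, was at 263 and 284 CPM in PC9 and at 354 and 368 CPM in PC9OR, and rose by 0.43 ± 0.11 (edgeR adjusted p = 0.029). SDHB, the iron-sulphur subunit, was at 0.30, and the membrane anchors SDHC and SDHD were at 0.42 and 0.20, none of them past the test. The complex had the smallest median of the 5 in the library-size fit, 0.41, and its median was 0.36 in the length-offset fit.

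In complex III 5 of 9 subunits were called higher in the library-size fit and 4 in the length-offset fit, with medians of 0.66 and 0.54 and no subunit called lower. UQCRB, which binds ubiquinone, was at 129 and 186 CPM in PC9 and at 273 and 292 CPM in PC9OR. Its rise was 0.84 ± 0.20 in the library-size fit (edgeR adjusted p = 0.029) and 1.10 ± 0.23 in the length-offset fit (edgeR adjusted p = 0.017). UQCRFS1, the Rieske iron-sulphur protein, had tight replicates: 52.5 and 59.4 CPM in PC9, and 98.6 and 99.2 CPM in PC9OR. It rose by 0.82 ± 0.12 in the library-size fit (edgeR adjusted p = 0.010) and by 0.54 ± 0.10 in the length-offset fit (edgeR adjusted p = 0.013). UQCR10 and the core protein UQCRC2 rose by 0.57 each. CYC1, the haem-carrying cytochrome of the complex, was called in the library-size fit (0.57 ± 0.16, edgeR adjusted p = 0.048) and not in the length-offset fit (0.30 ± 0.12, edgeR adjusted p = 0.090). UQCRH, the hinge protein and the most abundant of the complex in FPKM in every library, was at -0.12 and did not pass.

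Complex IV showed the largest median of the library-size fit, 0.89 (7 of 13 called higher, 1 lower), and 0.44 in the length-offset fit (5 higher, 1 lower). COX5B, a zinc-binding subunit, was the most abundant subunit of the complex in FPKM in every library. Its CPM was 119 and 215 in PC9 and 405 and 416 in PC9OR. The PC9OR libraries lay close together and well above both PC9 libraries, which differed from each other, and the rise was 1.29 ± 0.29 in the library-size fit and 0.71 ± 0.14 in the length-offset fit (edgeR adjusted p = 0.026 and 0.015). COX6C, COX6B1, COX7B and COX7A2L, the last of which joins complexes III and IV in supercomplexes, rose by 0.56, 0.44, 0.45 and 0.51. With canonical transcript lengths COX7B (1.05) exceeded COX5B (0.91). COX4I1, the common isoform of the subunit to which ATP binds, was at -0.01 ± 0.10 in the length-offset fit (edgeR adjusted p = 0.94), and COX7C (0.02), COX8A (0.12) and COX5A (-0.22) did not pass either.

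Several complex IV subunits have tissue isoforms, and the files list only some of them. Of the heart and muscle isoforms COX6A2 and COX7A1, the lung isoform COX4I2 and the testis isoform COX8C no value was listed, while their partners COX6A1 (0.34), COX7A2 (0.48), COX4I1 and COX8A were. COX6B2, the testis isoform of COX6B1, was the subunit with the largest fall. It had 92.3 and 89.0 expected counts in PC9, 12.2 in PC9OR replicate 1 and 0 in PC9OR replicate 2. Both PC9OR libraries lay below both PC9 libraries, at a log2 fold change of -4.37 ± 1.07 (edgeR adjusted p = 0.026). Because 1 of the PC9OR libraries is at 0, the size of this change is poorly fixed: over the alternatives of the length-offset fit it ran from -9.70 to -3.38, with adjusted p between 7.3e-05 and 0.031. In the library-size fit (-4.19 ± 1.12, edgeR adjusted p = 0.041) it ran from -9.62 to -1.26, the latter by limma on log2(FPKM + 1), and the call was lost without PC9 replicate 1 (edgeR adjusted p = 0.054). COX6B2 made up 1.87% and 1.09% of the summed FPKM of COX6B2 and COX6B1 in PC9, and 0.0753% and 0% in PC9OR. COX7B2, the testis isoform of COX7B, kept its place: its share of the summed FPKM of the pair was 7.07% and 6.64% in PC9, and 6.06% and 7.14% in PC9OR. COX7B2 went from 7.38 and 12.2 CPM to 17.5 and 23.2 CPM, with 0.48 ± 0.19 in the length-offset fit (edgeR adjusted p = 0.097).

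**Figure D4:**
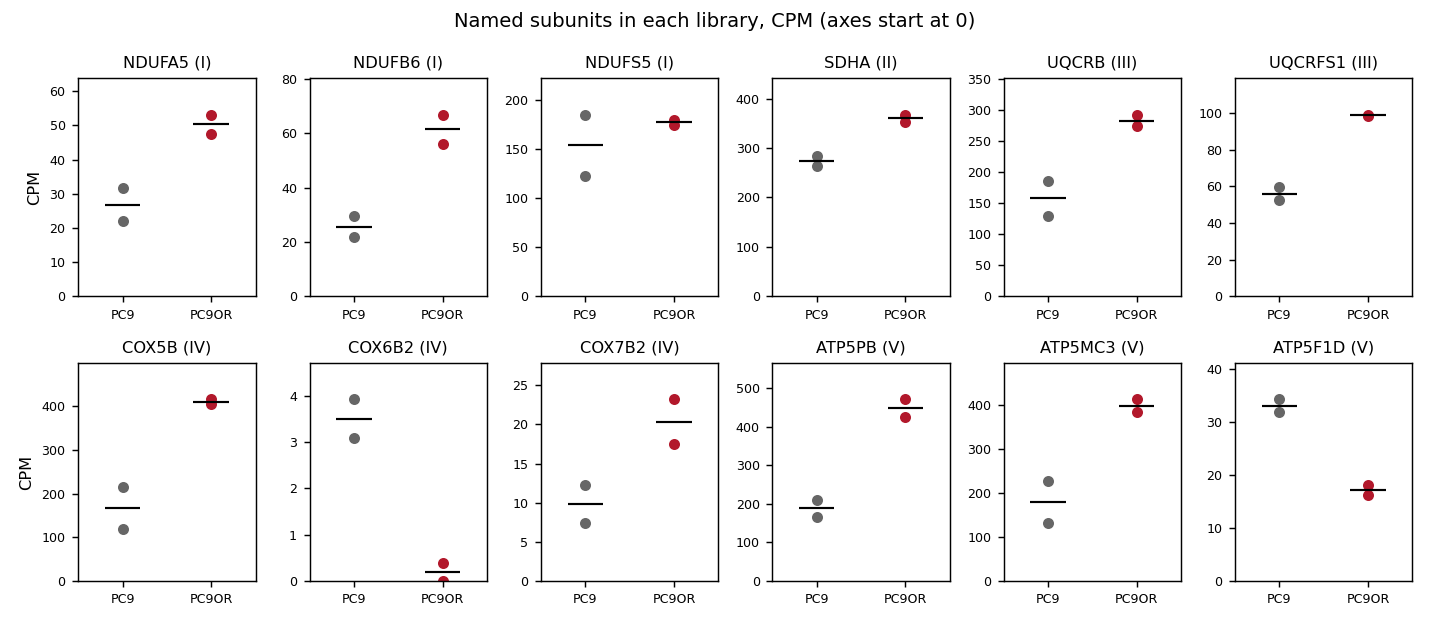
CPM of 12 named subunits in each library (points, grey for PC9, red for PC9OR) with the mean of each line (bars) and all axes starting at 0; the complex is given in brackets. COX6B2 and ATP5F1D are lower in both PC9OR libraries, NDUFS5 overlaps between the lines, and the other 9 are higher in both PC9OR libraries.

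Complex V had 16 tested subunits and medians of 0.76 in the library-size fit (8 called higher, 1 lower) and 0.25 in the length-offset fit (4 higher, 1 lower). The 4 called higher in the length-offset fit were 25% of its subunits, near the 19.9% of all genes. ATP5PB, a peripheral stalk subunit, was at 165 and 210 CPM in PC9 and at 425 and 471 CPM in PC9OR. The lines were separated by more than the range within either, and the rise was 1.25 ± 0.16 in the library-size fit (edgeR adjusted p = 0.0083) and 1.18 ± 0.14 in the length-offset fit (edgeR adjusted p = 0.0042). Its adjusted p stayed at 0.022 or below in every alternative of both fits. The other stalk subunits were at 0.22 (ATP5PO), -0.17 (ATP5PD) and -0.18 (ATP5PF) and did not pass the length-offset fit.

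The proton-carrying c ring is encoded by ATP5MC1, ATP5MC2 and ATP5MC3, which give the same mature protein. ATP5MC3 rose from 132 and 226 CPM to 384 and 413 CPM, by 1.16 ± 0.26 (edgeR adjusted p = 0.020). ATP5MC2 went from 62.9 and 82.3 CPM to 138 and 149 CPM, by 0.59 ± 0.10 (edgeR adjusted p = 0.011), and ATP5MC1 was at 0.09 ± 0.11 (edgeR adjusted p = 0.52). Of the summed FPKM of these 3 genes, ATP5MC3 made up 24.1% and 28.3% in PC9, and 30.7% and 31.1% in PC9OR. ATP5MC1 made up 38.1% and 37.3% in PC9, and 31.9% and 30.8% in PC9OR, so its share was lower in both PC9OR libraries. These differences in share were not tested.

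In the F1 head of complex V, ATP5F1A (the alpha subunit) rose from 577 and 812 CPM to 1143 and 1213 CPM, by 0.65 ± 0.16 (edgeR adjusted p = 0.026). ATP5F1B, the catalytic beta subunit, was at 0.23 ± 0.12 (edgeR adjusted p = 0.17) and ATP5F1E, the most abundant subunit of complex V in FPKM, at 0.21 ± 0.10 (edgeR adjusted p = 0.15). With canonical transcript lengths ATP5F1E was at 0.97 ± 0.23 (edgeR adjusted p = 0.024) and ATP5F1B at 0.21 ± 0.11 (edgeR adjusted p = 0.19). ATP5F1D, the delta subunit of the central stalk, moved the other way. It was at 34.3 and 31.9 CPM in PC9 and at 18.2 and 16.1 CPM in PC9OR, below both PC9 libraries in both. It fell in the library-size fit (-0.95 ± 0.14, edgeR adjusted p = 0.010) and in the length-offset fit (-1.39 ± 0.19, edgeR adjusted p = 0.0053). Its adjusted p was at most 0.0069 in the alternatives of the length-offset fit and at most 0.077 in those of the library-size fit. ATP5IF1, the protein that inhibits the hydrolysis of ATP by complex V, was at 0.58 ± 0.17 in the library-size fit and at 0.01 ± 0.11 in the length-offset fit (edgeR adjusted p = 0.93).

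The genes beside both falling subunits were listed for context, in the GRCh37 build that the files use. ATP5F1D lies on chromosome 19 at 1241745 to 1244824 on the plus strand. Its 20 nearest tested genes, 10 on each side, showed a median of -0.04 on the log2 scale, and 2 of them were below ATP5F1D. MIDN, the next tested gene to the right, was at 48.2 and 28.6 CPM in PC9 and at 0 and 0.656 CPM in PC9OR, with a log2 fold change of -6.67 ± 0.79 (edgeR adjusted p = 0.0039). COX6B2 lies on chromosome 19 at 55860674 to 55866087 on the minus strand, and its 20 neighbours had a median of 0.22, with none as low as COX6B2. IL11, a cytokine gene next to it, fell by 1.93 on the log2 scale (edgeR adjusted p = 0.0021). These neighbours were picked by position after the values of both subunits were seen.

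The summed FPKM of each complex gives its level per length. Over the 80 subunits it was 7584 ± 2034 in PC9 and 12903 ± 197 in PC9OR (SD, n = 2), a log2 ratio of 0.77. By complex the log2 ratio was 0.73 for complex I, 0.45 for II, 0.57 for III, 0.91 for IV and 0.77 for V. FPKM of all genes do not sum to the same total in these libraries. With FPKM scaled to a fixed total of 1000000 (TPM) the ratios fell to 0.43, 0.14, 0.28, 0.62 and 0.47. In that scale the subunits made up 2.00% and 2.53% of each PC9 library, and 3.09% and 3.18% of each PC9OR library. Neither scale removes the trend with transcript length. Median subunit length was 772 bases in complex I, 2085 in II, 1335 in III, 590 in IV and 823 in V. In the length-offset fit the medians were instead 0.37, 0.36, 0.54, 0.44 and 0.25 in that order. Of the summed subunit FPKM, complex I held between 32.3% and 33.7% in the 4 libraries and complex V between 27.9% and 28.4%. Complex II held 3.19% and 2.82% in PC9 and 2.37% and 2.38% in PC9OR. Complex IV held 24.5% and 26.2% in PC9 and 28.2% and 28.1% in PC9OR, and complex III held 10.3% and 9.96% in PC9 and 8.85% and 8.83% in PC9OR. These shares are not adjusted for the trend with length, and their differences were not tested.

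The NDUFAF assembly factors bear the NDUFA prefix but leave complex I once it is built. Of 8 tested, NDUFAF4 (0.56) and NDUFAF7 (0.58) were called higher in the length-offset fit and none lower, with a median of 0.57. Of 46 other assembly factors 10 were called higher and 4 lower. The shares called higher, 25% of the NDUFAF genes and 21.7% of the others, lay near the 19.9% of all genes. Of all genes, 18.4% were called lower. SDHAF3, which matures SDHB, was the highest of those with counts in every library, from 8.23 and 13.7 CPM to 26.4 and 28.6 CPM (1.24 ± 0.24, edgeR adjusted p = 0.014). COA7, a factor of complex IV assembly, was the lowest, from 54.9 and 57.8 CPM to 31.1 and 33.9 CPM (-0.87 ± 0.11, edgeR adjusted p = 0.0048). SURF1, another complex IV factor, had 0 counts in both PC9 libraries and 53.8 and 40.2 in PC9OR. Against a floor of 3 counts per library its level in PC9OR was higher by at least 12.6-fold.

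**Figure D5:**
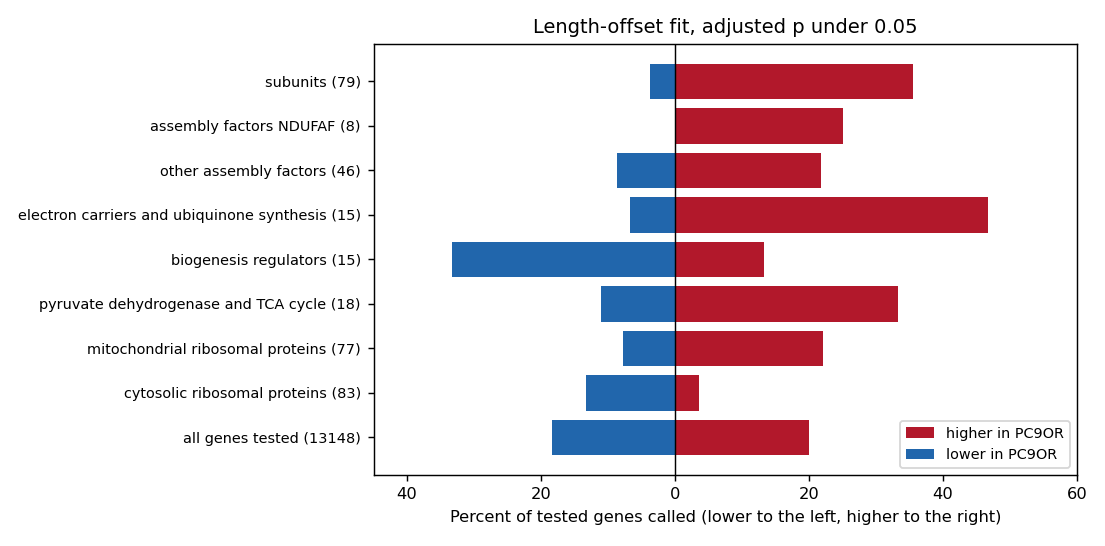
Percent of tested genes called lower (blue, to the left) and higher (red, to the right) in PC9OR in the length-offset fit, for the subunits and for related gene lists, with the number tested in brackets. The bars for all 13148 genes, 19.9% higher and 18.4% lower, give the background.

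Genes that feed electrons to the chain were described from the same fit. Of 15 electron carriers and ubiquinone synthesis genes 7 were called higher and 1 lower, where 19.9% of all genes were called higher and 18.4% lower. ETFB, a subunit of the electron transfer flavoprotein, went from 40.0 and 49.3 CPM to 114 and 124 CPM (1.03 ± 0.11, edgeR adjusted p = 0.0028). COQ2, which attaches the side chain of ubiquinone, fell from 27.7 and 32.2 CPM to 17.8 and 17.7 CPM (-0.93 ± 0.12, edgeR adjusted p = 0.0052). CYCS, which encodes cytochrome c, was at 0.15 ± 0.22 (edgeR adjusted p = 0.60). Of 18 pyruvate dehydrogenase and tricarboxylic acid cycle genes 6 were called higher (33.3%) and 2 lower, against the same shares of all genes. SUCLA2, a subunit of succinyl-CoA ligase, was the highest (0.96 ± 0.15, edgeR adjusted p = 0.0081). CS, citrate synthase, was at 318 and 225 CPM in PC9 and at 132 and 128 CPM in PC9OR, and fell by 1.00 on the log2 scale (edgeR adjusted p = 0.0084).

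Among 15 regulators of mitochondrial biogenesis 2 were called higher (13.3%) and 5 lower in the length-offset fit. Of all genes, 19.9% were called higher and 18.4% lower. TFAM, which packages and transcribes mitochondrial DNA, was the highest (0.91 ± 0.21, edgeR adjusted p = 0.021), from 213 and 282 CPM to 358 and 396 CPM. PPRC1, a coactivator of the PGC-1 family, was the lowest, from 121 and 65.2 CPM to 24.2 and 24.4 CPM (-1.58 ± 0.24, edgeR adjusted p = 0.0066). NRF1, a factor whose motif was searched above, went from 17.7 and 13.3 CPM to 7.40 and 5.10 CPM (-1.17 ± 0.25, edgeR adjusted p = 0.017), and PPARGC1B, which encodes PGC-1 beta, fell by 0.78 on the log2 scale (edgeR adjusted p = 0.029). PPARGC1A, which encodes PGC-1 alpha, was not tested. TWNK and POLG, which copy mitochondrial DNA, also fell, by 0.85 and 0.36.

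Ribosomal protein genes are of about the length of the subunits and were set beside them. Of 83 cytosolic ribosomal protein genes, 12 were called higher and 2 lower in the library-size fit (median 0.60), and 3 higher and 11 lower in the length-offset fit (median 0.11). RPL31 was the highest of those called in the length-offset fit (0.72 ± 0.13, edgeR adjusted p = 0.011) and RPL28 the lowest (-1.49 ± 0.27, edgeR adjusted p = 0.011). Of 77 mitochondrial ribosomal protein genes, 18 were called higher and 3 lower in the library-size fit (median 0.43), and 17 higher and 6 lower in the length-offset fit (median 0.18). MRPS9 was the highest in the length-offset fit (1.15 ± 0.13, edgeR adjusted p = 0.0036) and MRPL12 the lowest (-0.92 ± 0.13, edgeR adjusted p = 0.0059). The corresponding medians of the subunits were 0.72 and 0.35. Over all genes, 15.6% were called higher and 20.8% lower in the library-size fit, and 19.9% and 18.4% in the length-offset fit. The mitochondrial ribosomal protein genes, with 22.1% called higher in the length-offset fit, lay near that share.

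Markers checked the labelled cell type. The epithelial gene EPCAM was at 334 and 334 CPM in PC9 and at 319 and 343 CPM in PC9OR, KRT8, KRT18 and KRT19 were called higher in PC9OR, and CDH1 lower. The fibroblast markers COL1A1 and COL1A2 stayed below 1 CPM, and PTPRC, DCN and VWF, at or near 0, were not tested. CDH5, listed as an endothelial marker, was at 34.7 and 24.0 CPM in PC9 and 5.06 and 4.78 CPM in PC9OR, and CD68 fell as well, and whether either moves with the subunits was not tested. PECAM1, the other endothelial marker tested, was also lower in PC9OR, and 1 of the 2 was called. Over these 2 the median log2 ratio of PC9 replicate 2 to replicate 1 was -3.04, which CDH5, at 34.7 and 24.0 CPM, did not approach. That median therefore rested on PECAM1 and is not read as a difference between the parental replicates. In bulk RNA, fewer cells of a kind and less RNA per cell cannot be told apart. RefSeq lists 193 pseudogenes with the members' prefixes and none was listed in the files, so reads from such copies cannot be told apart from those of the members. For 32 of the 80 listed subunits the expected count was not whole in at least 1 library, as RSEM gives where reads are shared with other transcripts.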

How the data were processed

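RNA of 2 PC9 and 2 PC9OR cultures was sequenced. In the submitters' processing notes the tools are Bowtie2 2.2.5 and RSEM 1.2.12 and the build is GRCh37. Per library and gene, the authors deposited the expected count (RSEM's estimate, not normalized), the FPKM (fragments per length and library size, normalized by the authors) and a transcript length weighted by isoform. A gene missing from a file was taken as 0. Gene IDs were named from RefSeq. Expected counts were rounded and tested with edgeR 4.0.16 (quasi-likelihood test, TMM scaling, filterByExpr, R 4.3.3) on 13148 genes, with Benjamini-Hochberg adjustment over all of them and a call at 0.05. The length-offset fit added, per library, a smooth curve (mgcv 1.9.3) of level on log2 length, fitted on genes that are no members. GENCODE (GRCh37) gave positions and GC content. The fits were also run on simulated data, in which all libraries varied alike and less than the PC9 replicates did. Where a length trend was put in, it was the fitted curve itself. Those runs therefore do not show how the fits perform on these libraries. Alternatives were DESeq2 1.42.0, limma 3.58.1 on log2(FPKM + 1) with 0.1 as another pseudocount, filters, a GC offset, a replicate block and leaving out each library.

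Members and lists were chosen with earlier results of these data known. Named subunits were the highest and lowest of each complex, the 10 largest changes called in the length-offset fit, the complex II subunits, the complex I core, isoform pairs and c-ring genes, and in each other list the highest and lowest called gene. A named gene that is not reported here was left out of the text and of the plot by subunit. Any further gene was picked with its values known. Replicate numbers were not treated as pairs, since same-numbered deviations correlated at 0.066 over 11952 genes. The replicates of a line differed by more than counting error (chi-square per degree of freedom 69.5 in PC9 and 9.80 in PC9OR), and the biological coefficient of variation was 0.24 in PC9 and 0.10 in PC9OR. With 2 libraries per line, p-values measure only the spread between these cultures. A floor of 3 counts equals 0.0932 to 0.129 CPM per library and covers counting error only.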

Additional observations from a re-analysis of the deposited data

How the results depend on the processing

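Of the alternatives fixed for these comparisons, DESeq2's Wald test called 66 members higher in the library-size fit and the model on pooled replicates 85. The pooled model allows for counting error only. The share of all genes called under these alternatives is not given, so the counts are not read as a result about the members. A minimum of 10 counts in every library left 1 member called lower, and the rule of over 2-fold with an adjusted p under 0.001 left 0 higher and 0 lower in either fit. Leaving out each library gave 7 to 81 members higher and 1 to 2 lower in the library-size fit, and 5 to 61 higher and 2 to 5 lower in the length-offset fit. The counts with a library left out are not read as a result, because the line with a lone library has no spread of its own. A further offset for GC content gave 5 lower. With TPM in place of FPKM the log2 ratios of summed level were 0.43 (complex I), 0.14 (II), 0.28 (III), 0.47 (V) and 0.47 (all subunits). Leaving out each library moved these from 0.49 to 1.02 (I), 0.27 to 0.64 (II), 0.34 to 0.85 (III), 0.62 to 1.27 (IV), 0.53 to 1.06 (V) and 0.52 to 1.07 (all) on the FPKM scale, the subunit medians from 0.47 to 0.98 and 0.24 to 0.46, and the median difference from length neighbours from 0.19 to 0.31. The sign changed for NDUFS5 in the library-size fit (0.51 to -0.068 over the left-out libraries), and in the length-offset fit for COX4I1 (0.096 with the GC offset, -0.027 to 0.0062 over the left-out libraries, 0.019 with canonical lengths), SDHD (-0.0098 with the GC offset), ATP5IF1 (-0.017 with at least 10 counts, -0.0015 to 0.031 over the left-out libraries) and NDUFV2 (-0.029 without PC9 replicate 1), none of them called under these settings. The causes were not tested.

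GENCODE canonical transcript lengths in place of the deposited lengths were added after seeing the data, because deposited lengths depend on the isoforms assigned. They gave 34 members higher and 2 lower, where 20.2% of all genes were called higher. Of the 30 called higher with deposited lengths, 27 were called in both. The median was 0.44 for the subunits, and NDUFS5 was then no longer called. The replicate block gave 64 members higher in the library-size fit and 44 in the length-offset fit, with same-numbered samples sharing only a number. The share of all genes called with the block is not given.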
